A study of Homo sapiens with 18 samples.

Results

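The subunits of RNA polymerases I, II and III (RNAPI, RNAPII and RNAPIII) were followed as 30 genes, taken by gene ID from 23604 genes listed in at least 1 RNA-Seq library. Of these, 6 encode subunits of RNAPI only, 7 of RNAPII only, 10 of RNAPIII only, 2 are shared by RNAPI and RNAPIII, and 5 are shared by the 3 enzymes. All 30 passed the filter on low counts. The cells were MCF10A-ErSrc, a human breast epithelial line that carries a v-Src kinase switched on by tamoxifen. Cells kept free of tamoxifen are named non-treated (NT), and those transformed by 2 µM tamoxifen are named TAM. Both were then given either DMSO or 0.125 µM triptolide (TPL) for 4 h, TPL being a compound that targets XPB, a subunit of the general factor TFIIH. RNA-Seq of poly-A RNA was made from 2 biological replicates in each of the 4 groups (NT, NT + TPL, TAM, TAM + TPL), and ChIP-Seq of RNAPII gave 1 deposited list of promoter peaks per group. All 4 groups carry the v-Src construct and come from a single line.

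RNAPI transcribes the large ribosomal RNA precursor, RNAPII transcribes mRNA precursors, and RNAPIII transcribes tRNAs, 5S RNA and other small RNAs. Each enzyme is built from its own largest and second largest subunit, which form the active site, an assembly pair, a stalk and the small subunits shared by the enzymes. RNAPI and RNAPIII also hold built-in subunits that resemble the RNAPII factors TFIIF and TFIIE. The mRNAs of all subunits are themselves made by RNAPII, whose promoter opening depends on XPB. TPL is known from other work to bring about the degradation of the largest RNAPII subunit as a protein. The paper also reports lower RNAPII protein in these NT and TAM cells at the TPL dose and time used here. The values here are of RNA, not protein.

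The libraries held between 7461309 and 8349448 expected counts, which are reads per gene as estimated with RSEM. Levels are given as FPKM (counts scaled by transcript length and by the reads of the library), which allows genes of different length to be compared within a library. All 7 keratin and other markers of basal breast epithelium were expressed in the DMSO libraries. Their summed level lay between 1620 and 14600 FPKM and was lowest in TAM + TPL. TP63, 1 of the 7, stood between 13.2 and 24.2 FPKM with DMSO and between 0.28 and 0.89 with TPL. Of 10 markers of leukocytes, endothelium and fibroblasts, 6 stayed under 1 FPKM in every library, 2 of them at 0 throughout. The highest were CD14 (5.75 to 18.6 FPKM) and DCN (3.67 to 6.69 FPKM). The 10 together summed to between 12.3 and 28.4 FPKM, highest in NT + TPL. The part of these marker differences in the results below was not tested. Changes were tested with edgeR's quasi-likelihood test over 16948 genes, and "rose" and "fell" mean an adjusted p of at most 0.05 in that test.

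With TPL, many RNAPI and RNAPIII subunit mRNAs fell, most RNAPII and shared subunits had no call, and POLR2A, which encodes the largest RNAPII subunit, rose. In NT cells 13 of 30 subunits fell (43.3%, beside 19.8% of all genes tested) and 3 rose (beside 17.2%). In TAM cells 10 fell (33.3%, beside 18.6%) and 2 rose (beside 14.3%). The fallers in NT cells were 5 of 6 RNAPI, 6 of 10 RNAPIII, 1 of 7 RNAPII and 1 of 7 shared genes. In TAM cells they were 4 of 6 RNAPI, 4 of 10 RNAPIII, 0 of 7 RNAPII and 2 of 7 shared genes. Between the 2 states 9 genes fell in both, and POLR2A and POLR3GL rose in both. The shares of all genes are not matched for expression. In a fit of the 12502 genes with at least 10 counts in every library, 12 subunits fell and 3 rose in NT cells. All calls there numbered 6114, 51.6% of them lower. In TAM cells 11 fell and 3 rose, beside 5385 calls, 54.9% of them lower. Because the counts are shares of the RNA of a library, a loss of RNA per cell that touched all genes alike would not appear in these values, and fewer cells or less RNA per cell cannot be told apart.

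The median log2 fold change with TPL in NT cells was −0.92 for RNAPI, −1.14 for RNAPIII, 0.20 for RNAPII and −0.02 for the shared subunits, beside 0.09 for all genes tested. In TAM cells the medians were −0.79, −0.75, −0.12 and −0.16 in the same order, beside 0.05 for all genes. The RNAPI and RNAPIII medians stayed below 0 under each scaling tried. The RNAPII median turned to −0.13 in NT cells with libraries scaled to equal GAPDH and to 0.12 in TAM cells with upper quartile normalization, and the shared medians also crossed 0 with the latter (0.20 and 0.08). Upper quartile normalization moved the median of all genes by 0.22 in NT and 0.24 in TAM cells, and GAPDH moved it by −0.34 and −0.11. The share of all calls that were lower was 53.5% in NT cells, against 39.1% with upper quartile normalization and 76.3% with GAPDH, and 56.5% in TAM cells, against 38.9% and 65.3%.

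**Figure D1:**
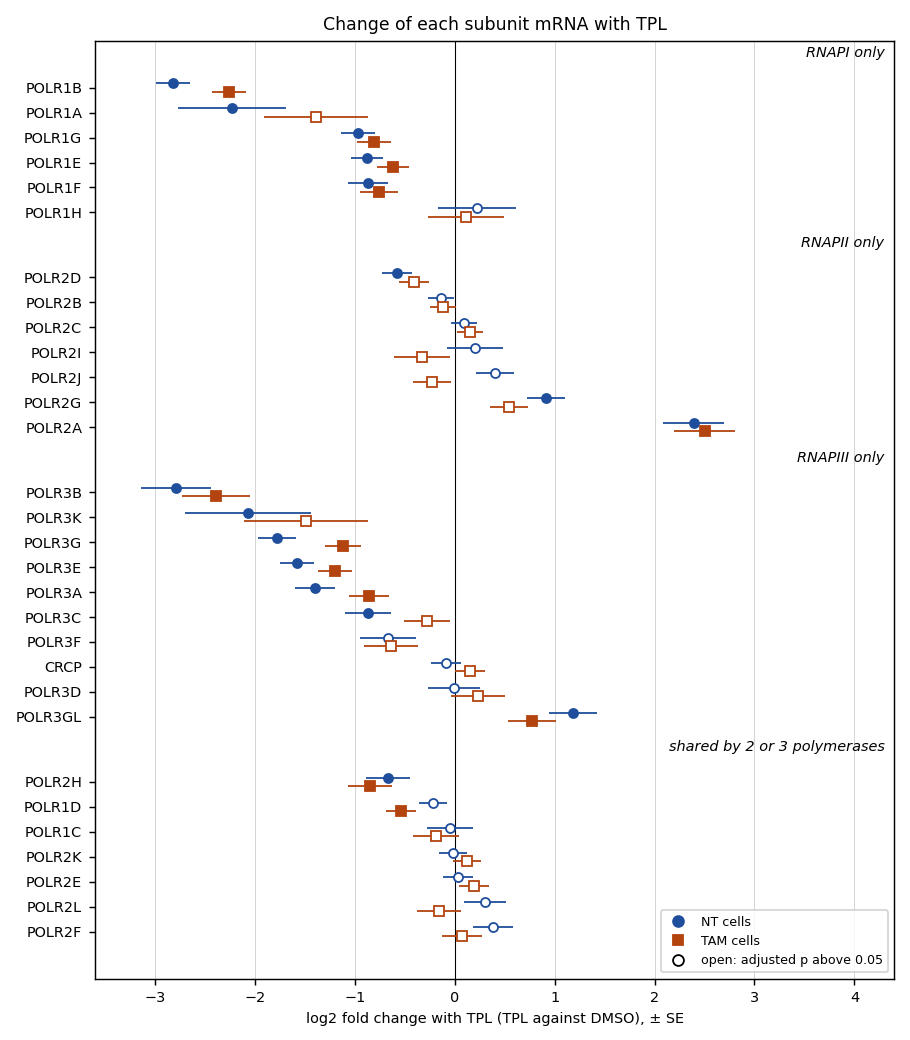
Log2 fold change with TPL against DMSO for each subunit gene (horizontal axis, ± SE from the edgeR fit of 8 libraries) in NT cells (circles) and TAM cells (squares), filled where the adjusted p is at most 0.05. RNAPI and RNAPIII genes lie mostly to the left, down to −2.82 for POLR1B, while POLR2A lies at 2.39 and 2.50.

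Transcript length was set beside these values. The 8 subunits whose transcripts were longer than about 3780 bases had a median log2 fold change of −1.14 in NT cells, beside −0.13 for all genes of that length, and −0.81 beside 0.01 in TAM cells. The 15 subunits of at most about 2170 bases had medians of 0.09 in NT and −0.16 in TAM cells, beside 0.38 and 0.13 for all genes of that length. The 7 subunits between these bounds had medians of −0.67 in NT and −0.64 in TAM cells, beside 0.02 and 0.0 for all genes of that length. The 8 long transcripts were those of POLR1A, POLR1B, POLR1F, POLR2A, POLR2B, POLR3A, POLR3B and POLR3C. Length and enzyme are thus not separated by these medians. The 3 largest subunits have transcripts of nearly equal length (POLR1A 6637, POLR2A 6738 and POLR3A 6652 bases). In NT cells POLR2A rose while POLR1A and POLR3A fell. The part of length in these changes was not tested.

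The 250 bases before the start of 4 subunit genes are shown, because they are the promoters of the gene that rose most (POLR2A), of the gene with the smallest adjusted p (POLR1B), of the RNAPIII subunit that fell most (POLR3B) and of a gene that holds the letters of a tRNA gene B box there (POLR3E). They are RefSeq sequences, each matched at a single place in GRCh37 (hg19), at chr17:7387435-7387684, chr2:113299792-113300041, chr12:106751276-106751525 and chr16:22308480-22308729, all on the plus strand. Capitals mark matches on either strand to the CCAAT box, to the GC box GGGCGG, to the TATA box TATAAA, to the E-box CACGTG, to the ETS core CCGGAA and, in POLR3E, to the B box of tRNA genes.
POLR2A: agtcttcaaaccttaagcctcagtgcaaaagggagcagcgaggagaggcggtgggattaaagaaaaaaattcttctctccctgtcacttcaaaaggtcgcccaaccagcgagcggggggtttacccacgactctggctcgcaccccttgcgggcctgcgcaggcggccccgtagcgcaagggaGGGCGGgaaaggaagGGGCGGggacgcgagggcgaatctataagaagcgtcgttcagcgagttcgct
POLR1B: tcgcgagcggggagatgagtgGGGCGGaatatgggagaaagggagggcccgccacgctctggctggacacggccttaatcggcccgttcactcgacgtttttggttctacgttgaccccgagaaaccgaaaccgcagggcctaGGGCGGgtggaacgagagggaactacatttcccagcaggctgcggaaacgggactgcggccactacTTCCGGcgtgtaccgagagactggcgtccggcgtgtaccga
POLR3B: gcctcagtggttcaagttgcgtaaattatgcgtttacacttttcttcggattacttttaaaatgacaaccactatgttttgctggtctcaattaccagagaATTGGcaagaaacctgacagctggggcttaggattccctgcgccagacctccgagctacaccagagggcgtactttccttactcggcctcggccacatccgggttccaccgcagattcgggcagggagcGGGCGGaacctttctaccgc
POLR3E: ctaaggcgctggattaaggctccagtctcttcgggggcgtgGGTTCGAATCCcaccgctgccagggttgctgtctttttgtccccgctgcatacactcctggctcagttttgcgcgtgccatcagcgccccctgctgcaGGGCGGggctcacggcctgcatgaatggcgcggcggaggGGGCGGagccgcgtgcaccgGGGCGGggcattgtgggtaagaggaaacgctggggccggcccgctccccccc

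Windows of 300 bases (250 before and 50 after the RefSeq start) were used for 22 subunits, 28 windows in all. GGGCGG, the GC box bound by SP1, was in 67.9% of these and in 45.0% of all 35116 promoter windows. CCGGAA, the core of ETS factor sites, was in 42.9 beside 17.2%. CACGTG, the E-box of MYC and USF factors, was in 14.3 beside 7.3%, and CCAAT was in 21.4 beside 34.6%. TATAAA was in 0 of 28, beside 11.5%. Some subunits gave more than 1 window. By gene, GGGCGG was in 14 of 22, CCGGAA in 10, CACGTG in 4 and CCAAT in 6. All promoter windows were taken without regard to expression, so the shares are not matched for it. The POLR2A window held 2 GC boxes and no match to the other 4. POLR1B held 2 GC boxes and 1 CCGGAA, and POLR3B held 1 CCAAT and 1 GC box. The B box consensus, at which TFIIIC binds tRNA genes, was searched after the windows had been read. It was found in POLR3E alone among the 22 subunits with a window, beside 0.19% of all windows. These matches describe letters only.

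POLR2A encodes RPB1, the subunit that carries the C-terminal repeat domain and part of the active site. Its level was 71.3 and 78.0 FPKM in NT cells and 527 and 268 after TPL, while TAM cells gave 84.4 and 80.2 without and 563 and 398 with TPL. Every TPL library stood above every DMSO library, and the NT + TPL replicates differed from each other by more than the DMSO replicates did. Over genes with at least 10 counts in the 2 replicates together, NT + TPL replicates also differed most. Their chi-square per degree of freedom was 31.858, beside 13.807 in NT, 9.626 in TAM and 9.567 in TAM + TPL. The edgeR fit gave the 4 groups a shared spread per gene. POLR2A rose in NT cells by 2.39 on the log2 scale (SE 0.31, edgeR adjusted p = 0.00187), or 5.25-fold. In TAM cells it rose by 2.50 (SE 0.31, adjusted p = 0.00184), or 5.65-fold. By level, POLR2A moved from between the 765th and 954th of the genes tested in DMSO libraries to between the 153rd and 281st in TPL libraries. The rise kept an adjusted p of at most 0.0213 when any 1 library was left out. In the edgeR fit its adjusted p lay above 0.001, the bound that the study used together with a log2 fold change of 1.2. The paper names no test for that bound, so the values are not on the same footing. It reports potent overexpression of POLR2A with TPL, and more of its first-intron RNA by qRT-PCR.

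No other RNAPII subunit rose by as much. POLR2B, the second largest subunit and partner of POLR2A in the active site, stood at 20.6 and 23.7 FPKM in NT cells and 20.4 and 19.9 after TPL, while TAM cells gave 22.5 and 22.7 without and 20.4 and 22.0 with TPL. Its log2 fold change was −0.14 (SE 0.13, adjusted p = 0.428) in NT and −0.12 (SE 0.13, adjusted p = 0.501) in TAM cells. The ratio of POLR2A to POLR2B in FPKM was thus between 3.29 and 3.75 in the DMSO libraries and between 13.5 and 27.6 in the TPL libraries, with no overlap. POLR2C and POLR2J form the assembly pair of RNAPII, and neither passed the test (POLR2C 0.09 and 0.15, POLR2J 0.40 and −0.23 in NT and TAM cells on the log2 scale). POLR2J has near-identical copies in the genome, so its counts are uncertain.

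The stalk subunits of RNAPII, POLR2D and POLR2G, bind each other and moved in opposite directions in NT cells. POLR2G was 21.6 and 20.3 FPKM in NT cells and 34.9 and 43.8 after TPL, while TAM cells gave 22.1 and 24.4 without and 32.6 and 37.3 with TPL. TPL libraries lay above DMSO libraries in both states, and POLR2G rose in NT cells (by 0.91 on the log2 scale, SE 0.19, adjusted p = 0.0117) and missed the threshold in TAM cells (0.54, SE 0.19, adjusted p = 0.0699). POLR2D fell in NT cells (−0.58, SE 0.15, adjusted p = 0.0215), from 14.7 and 13.4 to 9.11 and 9.68 FPKM, and missed it in TAM cells (−0.41, adjusted p = 0.0705). POLR2I, which sits at the site of RNA cleavage, gave 0.20 and −0.33 with adjusted p of 0.606 and 0.398.

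**Figure D2:**
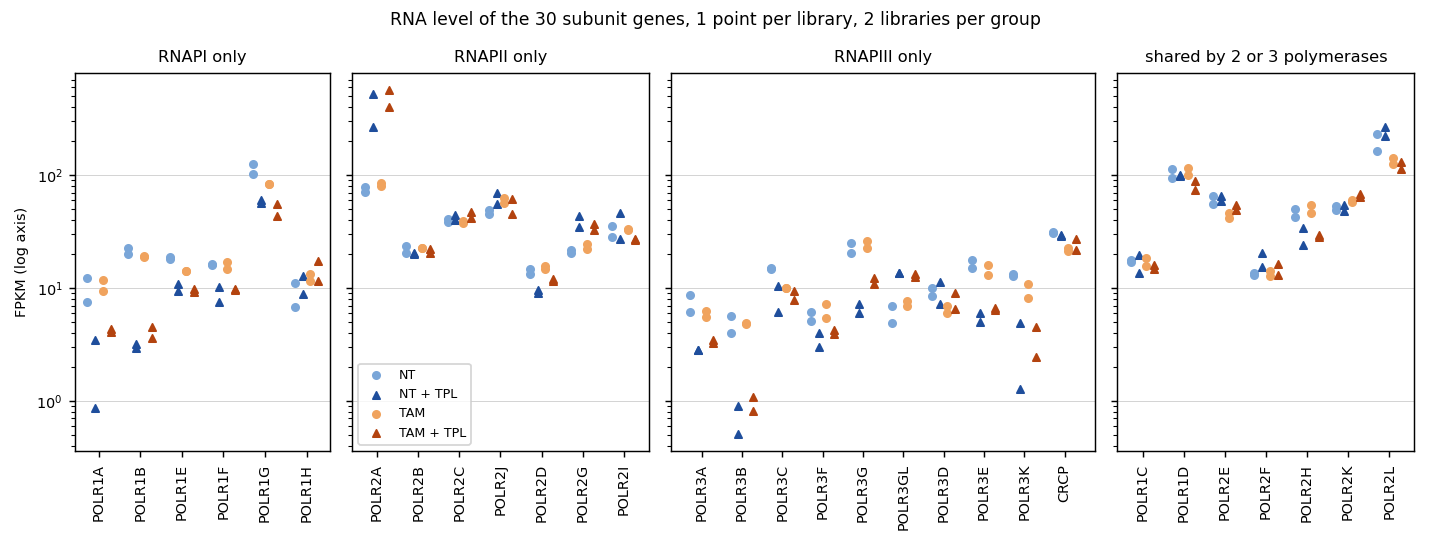
FPKM of the 30 subunit genes on a log axis, 1 point per library and 2 libraries per group, in 4 panels by enzyme. POLR2A with TPL (268 to 563 FPKM) lies above every other RNAPII subunit, and POLR3B with TPL (0.51 to 1.08 FPKM) is the lowest of the RNAPIII subunits.

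Of the RNAPI subunits, POLR1B, the second largest, had the smallest adjusted p of all 30 genes in both states. Its level was 20.0 and 22.8 FPKM in NT cells and 3.18 and 2.95 after TPL, while TAM cells gave 19.3 and 18.9 without and 3.6 and 4.56 with TPL. The TPL libraries were far below the DMSO libraries with little spread in either group. POLR1B fell by 2.82 on the log2 scale (SE 0.17, adjusted p = 0.000205) in NT cells and by 2.26 (SE 0.17, adjusted p = 0.000385) in TAM cells. POLR1B was also the single subunit that passed the study's stricter rule (an adjusted p up to 0.001 with a log2 change of 1.2 or more either way) in both states. That rule was met by 3 falling subunits in NT cells, beside 2.71% of all genes (POLR1B, POLR3G and POLR3E), and by 1 in TAM cells, beside 2.04%.

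POLR1A, the largest RNAPI subunit, stood at 7.60 and 12.3 FPKM in NT cells and 3.46 and 0.86 after TPL, while TAM cells gave 11.8 and 9.35 without and 4.05 and 4.3 with TPL. The TPL libraries lay below the DMSO libraries, with a wide spread in NT + TPL, where the expected counts were 179 and 44. POLR1A fell in NT cells (−2.23, SE 0.54, adjusted p = 0.0189), a call that was lost without NT replicate 2 and in the fit of those 2 groups alone (highest adjusted p of the libraries left out 0.0944). Its log2 fold change was −3.49 without NT + TPL replicate 1 and −1.55 without NT + TPL replicate 2. It gave −1.39 (SE 0.52, adjusted p = 0.0789) in TAM cells. The ratio of POLR1A to POLR1B lay between 0.381 and 0.611 in the DMSO libraries and between 0.292 and 1.12 in the TPL libraries, which overlapped. The subunits POLR1E and POLR1G, which form the part that resembles TFIIF, and POLR1F of the stalk fell in both states. The log2 fold changes were −0.88 and −0.62 for POLR1E, −0.97 and −0.81 for POLR1G, and −0.87 and −0.76 for POLR1F.

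POLR1G was the most abundant RNAPI subunit mRNA in every library, with 127 and 102 FPKM in NT cells and 60.8 and 56.4 after TPL, while TAM cells gave 82.9 and 84.0 without and 55.1 and 43.4 with TPL. Its TPL libraries lay below its DMSO libraries (adjusted p = 0.00552 in NT and 0.012 in TAM cells). Of its exonic bases, 56.4% lie under ERCC1 on the opposite strand, and because the strand of the reads is not stated, reads of the 2 genes cannot be told apart there. ERCC1 itself gave −0.39 in both states (adjusted p = 0.0524 and 0.0553). POLR1H, the RNA cleavage subunit of RNAPI, had no call, with 0.22 (SE 0.39, adjusted p = 0.673) in NT and 0.11 (SE 0.38, adjusted p = 0.841) in TAM cells, on 46 to 114 expected counts per library.

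Among RNAPIII subunits, the largest change was that of POLR3B, the second largest subunit, as in RNAPI. Its level was 4.01 and 5.67 FPKM in NT cells and 0.90 and 0.51 after TPL, while TAM cells gave 4.93 and 4.76 without and 1.08 and 0.82 with TPL, on 16 to 35 expected counts per TPL library. The groups did not overlap, and POLR3B fell by 2.79 (SE 0.35, adjusted p = 0.00166) in NT cells and by 2.39 (SE 0.34, adjusted p = 0.00299) in TAM cells on the log2 scale. POLR3A, the largest subunit, was 6.09 and 8.76 FPKM in NT cells and 2.81 and 2.82 after TPL, while TAM cells gave 6.25 and 5.49 without and 3.23 and 3.46 with TPL. POLR3A fell by 1.4 (SE 0.20, adjusted p = 0.00281) in NT and by 0.86 (SE 0.20, adjusted p = 0.0177) in TAM cells. The ratio of POLR3A to POLR3B was between 1.15 and 1.54 in DMSO libraries and between 2.99 and 5.53 in TPL libraries.

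POLR3E, which with POLR3D forms the part that resembles TFIIF, was 15.1 and 17.7 FPKM in NT cells and 6.06 and 5.03 after TPL, while TAM cells gave 16.1 and 13.1 without and 6.71 and 6.42 with TPL. POLR3E fell in NT cells (−1.58, SE 0.17, adjusted p = 0.000943) and likewise in TAM cells (−1.20, SE 0.17, adjusted p = 0.00267). POLR3D, its partner, gave −0.01 (SE 0.26, adjusted p = 0.975) and 0.23 (SE 0.27, adjusted p = 0.526), with libraries that overlapped in both states. POLR3K, the RNA cleavage subunit, fell in NT cells (−2.07, SE 0.63, adjusted p = 0.0395) and gave −1.49 (adjusted p = 0.107) in TAM cells, on 8 and 30 expected counts in NT + TPL. Its call in NT cells was lost when any of 7 libraries was left out, with upper quartile normalization and in the fit of those 2 groups alone. Its log2 fold change was −3.36 without NT + TPL replicate 2, the 1 library without which the call held, and −1.4 without NT + TPL replicate 1. CRCP, of the stalk, was between 21.1 and 31.4 FPKM in all libraries and had no call (−0.09 and 0.15).

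POLR3G and POLR3GL are paralogues that take the same place in the subcomplex resembling TFIIE, so that an RNAPIII molecule holds either of them, and POLR3G is known as the form of dividing and stem-like cells. POLR3G was 20.3 and 25.2 FPKM in NT cells and 6.06 and 7.22 after TPL, while TAM cells gave 22.6 and 26.1 without and 10.97 and 12.2 with TPL. It fell by 1.78 (SE 0.19, adjusted p = 0.000942) in NT cells and by 1.12 (SE 0.18, adjusted p = 0.00512) in TAM cells. POLR3GL was 6.91 and 4.93 FPKM in NT cells and 13.6 and 13.5 after TPL, while TAM cells gave 6.91 and 7.74 without and 12.5 and 13.4 with TPL. It rose by 1.18 (SE 0.24, adjusted p = 0.0104) and by 0.77 (SE 0.24, adjusted p = 0.0469) on the log2 scale, the latter call being lost with GAPDH scaling, with no filter on low counts and without any of the 4 libraries of TAM cells or either NT + TPL library. Some POLR3GL reads could belong to a gene model on the same strand that covers 13.6% of its exonic bases.

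The order of the paralogues by level turned with TPL. The ratio of POLR3G to POLR3GL was 2.93 and 5.11 in NT and 3.27 and 3.37 in TAM libraries. It was 0.446 and 0.536 in NT + TPL and 0.880 and 0.912 in TAM + TPL, so that every TPL library lay under 1 and every DMSO library above it. The other subunits of that subcomplex, POLR3C and POLR3F, gave −0.87 (adjusted p = 0.0246) and −0.67 (adjusted p = 0.0982) in NT cells and −0.28 (adjusted p = 0.383) and −0.64 (adjusted p = 0.114) in TAM cells. POLR3C thus fell in NT cells, and that call was lost with upper quartile normalization, in the fit of those 2 groups alone and without NT replicate 1, NT replicate 2 or NT + TPL replicate 2.

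**Figure D3:**
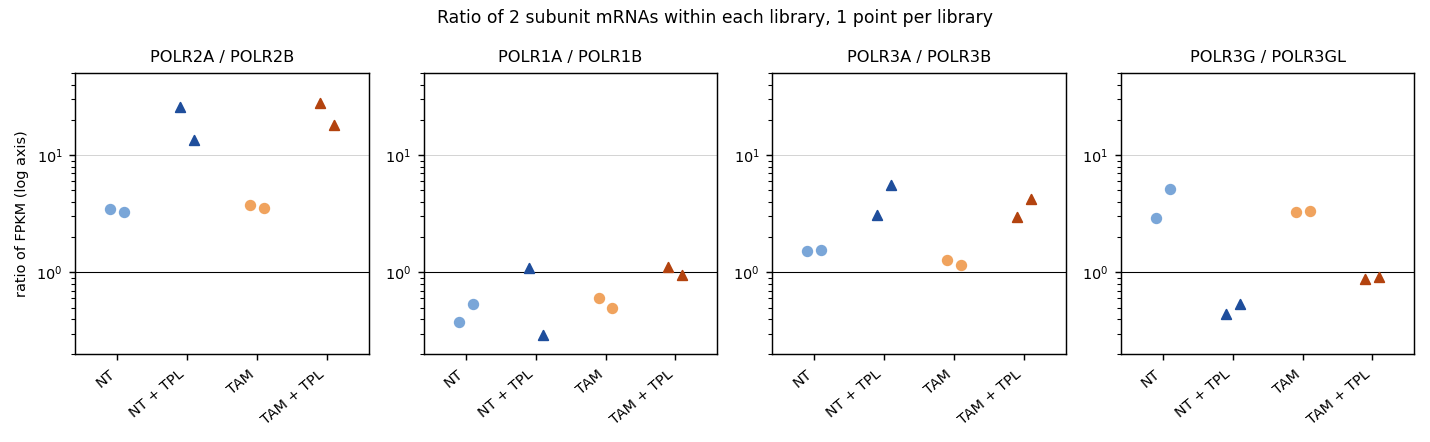
Ratio of FPKM between 2 subunit mRNAs of the same enzyme within each library, on a log axis, 1 point per library, with a line at 1. POLR2A to POLR2B stays between 3.29 and 3.75 with DMSO and between 13.5 and 27.6 with TPL, and POLR3G to POLR3GL crosses from above to below 1.

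The shared subunits were among the more abundant, with a median between 46.6 and 54.8 FPKM per library. POLR2H, which all 3 enzymes hold, fell in both states (−0.67, adjusted p = 0.0494 in NT and −0.85, adjusted p = 0.0249 in TAM cells). POLR1D, of the assembly pair of RNAPI and RNAPIII, fell in TAM cells (−0.54, adjusted p = 0.029) and gave −0.22 (adjusted p = 0.271) in NT cells, and its partner POLR1C gave −0.05 and −0.19. POLR2E, POLR2F, POLR2K and POLR2L had no call with TPL in either state, with log2 fold changes between −0.16 and 0.38. RSEM rows under RefSeq accessions of POLR2E and POLR1C were not counted, and adding them turned the median of the shared subunits to 0.01 in NT and 0.05 in TAM cells.

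Of 29 calls in all comparisons, 13 held under each of the alternative scalings, filters, tests and fits tried and without any 1 library. In NT cells these were POLR1B, POLR1E, POLR1G, POLR2A, POLR3A, POLR3B, POLR3E and POLR3G, and in TAM cells POLR1B, POLR2A, POLR3B, POLR3E and POLR3G. The TAM calls of POLR1D, POLR1E, POLR1F, POLR2H and POLR3A were lost without any 1 of the 4 libraries of TAM cells, that of POLR1E also without either NT library, with adjusted p of at most 0.17. All of these but POLR3A were lost with upper quartile normalization too, POLR1E also with GAPDH and POLR1D also in both limma fits. That of POLR1G was lost without TAM replicate 1, TAM replicate 2 or TAM + TPL replicate 2 (adjusted p of at most 0.0822). The NT calls of POLR1F, POLR2D and POLR2G were lost without either NT library (adjusted p of at most 0.098), that of POLR2D also without NT + TPL replicate 1, and that of POLR3GL without NT replicate 2 (0.0658). The fit of the 2 groups alone ended the NT calls of POLR1F, POLR2D and POLR2H, upper quartile normalization those of POLR2D and POLR2H, and GAPDH that of POLR2G. Of the 8 fits without a library, the NT call of POLR2H held in 1, that without NT + TPL replicate 2.

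Few subunits passed the test between TAM and NT cells. With DMSO, 0 of 30 passed between TAM and NT cells, beside 6.84% of all genes (1160 of 16948), although 6 had an unadjusted p under 0.05. The lowest adjusted p was 0.126, that of CRCP (−0.48). DESeq2 called 2 (POLR2E and CRCP), beside 2066 of all 16948 genes, and limma on log2(FPKM + 1) called 0, beside 1326. Scaling to equal GAPDH called 5, beside 2008 of all genes. That scaling moved the median of all genes by −0.47 and the share of lower calls from 49.5 to 84.0%. With TPL in both groups, 1 of 30 passed, beside 7.03% of all genes. This was POLR2L, a small shared subunit, at 222 and 265 FPKM in NT cells after TPL and 132 and 113 in TAM cells after TPL, with 232 and 162 in NT and 124 and 141 in TAM cells without it. On the log2 scale its difference, TAM minus NT, was −1.02 (SE 0.22, adjusted p = 0.0372), a call that was lost with upper quartile normalization, in the fit of those 2 groups and without NT + TPL replicate 2 or any of the 4 libraries of TAM cells. These comparisons share libraries with those of TPL against DMSO. Tamoxifen was given to TAM cells only, so tamoxifen and transformation cannot be told apart.

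The difference between the TPL effects of TAM and NT cells (the interaction) was called for 0 of 30 subunits, beside 0.165% of all genes. By unadjusted p, 2 were under 0.05, POLR3G (0.66, SE 0.26, adjusted p = 0.451) and POLR1B (0.56, SE 0.23, adjusted p = 0.466). DESeq2 and both limma fits also called 0, beside 519 of 16948 genes with DESeq2 and 75 and 44 with limma. Over the 30 genes, whose TPL effects in the 2 states come from separate libraries, Pearson's r between the log2 fold changes was 0.96, given as a description, since genes are not independent. Of 11 subunits called in both states, 9 had the larger change in NT cells.

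Factors that work with the polymerases were taken from 3 lists, to be read beside the 19.8% of all genes that fell in NT and 18.6% in TAM cells, and beside the medians of all genes, 0.09 and 0.05. Of 7 RNAPI factors, 4 fell in NT and 2 in TAM cells, with medians of −0.51 and −0.61. Of 16 RNAPIII factors, 6 fell in NT and 5 in TAM cells, with medians of −0.48 and −0.41. Of 14 factors that assemble or import polymerases or act on the C-terminal domain, 7 fell in NT and 5 in TAM cells, with medians of −0.65 and −0.49. No factor of the 3 lists rose, beside 17.2 and 14.3% of all genes, and none was called between TAM and NT cells. The smallest adjusted p in NT cells were those of UBTF, which binds ribosomal RNA gene promoters (−1.94, adjusted p = 0.000528), BRF1, a subunit of TFIIIB (−2.01, adjusted p = 0.00119), RPAP3, a chaperone partner in polymerase assembly (−1.66, adjusted p = 0.00142), and URI1, of the same chaperone complex (−0.96, adjusted p = 0.00197). The same 4 came first in TAM cells, with UBTF at −1.82, URI1 at −1.04, RPAP3 at −1.4 and BRF1 at −1.44.

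The genes whose pattern over the 8 libraries was most like that of POLR2A, among 14135 genes with a mean of at least 1 FPKM, were ABAT, FNDC7, SESN3, C3orf33 and MIR663A, with Pearson's r of log2(FPKM + 1) between 0.9934 and 0.9947. The first 4 did not pass 3.67 FPKM in any library, and MIR663A, a short row, reached 1312 FPKM. The libraries share the split by TPL, so that r mostly restates that split. No other subunit was near the top of that order, the closest being POLR3GL (r = 0.914), the 792nd gene.

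RNAPII ChIP-Seq was done with an antibody against the C-terminal domain, the repeat of POLR2A itself. The paper reports less RNAPII protein after TPL, and the part of that loss in the peak lists was not tested. The deposited lists hold those peaks within which a transcription start site (TSS) lies, called over input on hg19, with 1 list per condition and no height or read count, so that no replicate error can be given. A peak was assigned where it covered the TSS of the main GENCODE transcript. Such a peak was present for 29 of 30 subunits in NT cells and 26 after TPL, and for 26 in TAM cells and 27 after TPL. Of 14821 genes tested, 9460, 7546, 8328 and 7412 had one in the same order of lists. Peaks in all 4 lists were found for 23 subunits (76.7%), beside 42.1% of genes. Those genes were not matched for expression, and 32.5% of them had a peak in no list, beside 1 subunit. Another gene starts on the opposite strand within 1 kb of 12 of the subunit TSSs, and the lists do not tell their peaks apart. The peak names give a cut-off of 0.02 for 3 lists and a q of 0.1 for TAM, where 4584 of 11056 peaks are split parts. Neither the lengths nor the presence of peaks in TAM are thus on the same footing as in the other lists.

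The RNA and peak lists were compared gene by gene. The 3 subunits that rose in NT cells had peaks in both the NT and NT + TPL lists, as had 10 of the 13 that fell. The other 3 fallers, POLR1B, POLR2H and POLR3B, had a peak over the main TSS in NT and none in NT + TPL, but all 3 had a peak in NT + TPL within 1 kb of that TSS and over another annotated TSS. In TAM cells both risers and 7 of 10 fallers had peaks with and without TPL, POLR3B had one in TAM only, and POLR1E and POLR3E had one in TAM + TPL only. With a distance of 1 kb allowed, all 3 had peaks in both lists. Over the main TSS, POLR3B was the single subunit with peaks in both DMSO lists and in neither TPL list, a pattern held by 6.7% of genes, and with any annotated TSS or a distance of 1 kb it was held by 0 subunits, beside 7.5 and 8.1% of genes. POLR3K had no peak in either TAM list, and POLR1H had none in any list, under each of the 3 ways of assigning peaks.

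The peak over the TSS of POLR2A (chr17:7387685, plus strand, hg19) was 1400 bases long in NT cells and 1708 after TPL, and 965 bases long in TAM cells and 8607 after TPL. All 4 peaks covered the whole promoter window printed for POLR2A. The last runs from chr17:7387088 to chr17:7395694, 8009 bases into a gene whose main transcript ends at chr17:7417496. Among peaks over the main TSS of all genes, those longer than that of POLR2A numbered 1622 of 9460 in NT cells and 354 of 7546 after TPL, and 1300 of 8328 in TAM cells and 5 of 7412 after TPL. The longest peak of a subunit in NT was that of POLR2L, 6740 bases, which ran past the end of its gene and was 858 bases long in NT + TPL. Over all subunits with a peak, the median length was 860 bases in NT cells and 608.5 after TPL, and 443.5 bases in TAM cells and 449.0 after TPL, beside 729.5, 646.0, 490.0 and 520.5 for all genes.

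**Figure D4:**
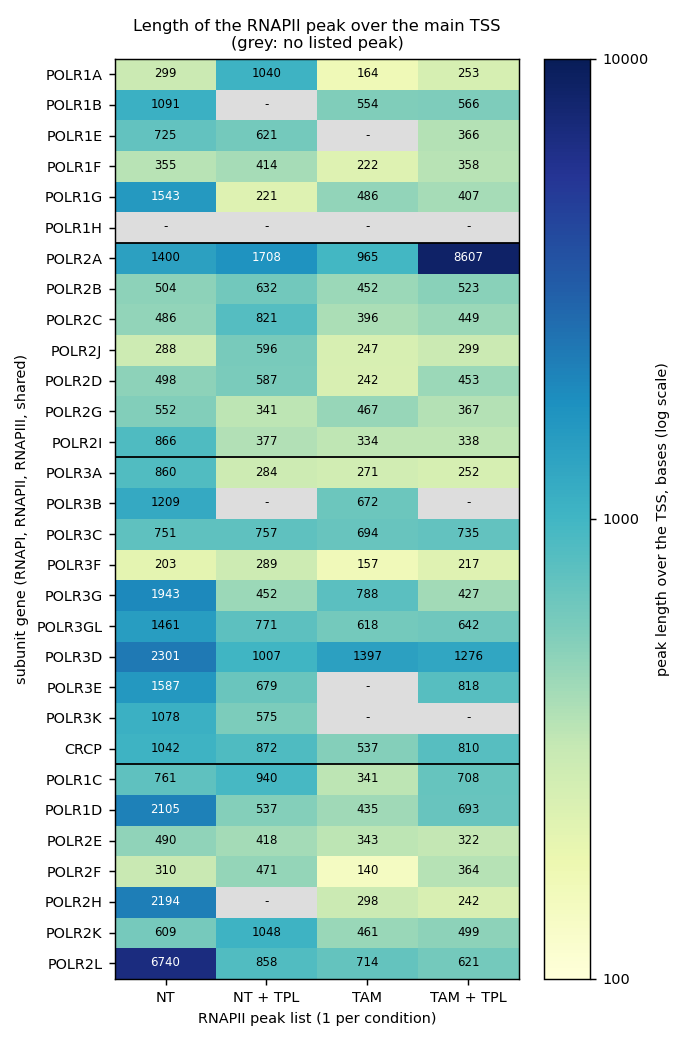
Length in bases of the listed RNAPII peak over the main TSS of each subunit gene (rows, by enzyme) in the 4 peak lists (columns), coloured on a log scale, with grey and a dash where no peak is listed. POLR1H is grey throughout, POLR3B is grey in both TPL columns, and POLR2A in TAM + TPL (8607 bases) is the longest.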

How the data were processed

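RNA-Seq libraries (2 biological replicates in each of 4 groups) and RNAPII ChIP-Seq peak lists (1 per condition, from 2 replicates) of MCF10A-ErSrc cells were used. The authors deposited expected counts per gene estimated with RSEM, and FPKM values of the same rows. The deposited BED lists hold peak coordinates on hg19, and their read depth is unknown. RSEM and MACS 1.4.2 are named in the submitters' processing notes, and strand settings are not given in the sources used here.

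Expected counts were rounded and fitted with edgeR 4.0.16 (filterByExpr, TMM, quasi-likelihood test, 1 fit of 4 groups, Benjamini-Hochberg over 16948 genes, adjusted p of at most 0.05), after testing on simulated data. Of 23604 rows, 99.4% were matched to a symbol. With 2 replicates per group, p-values set a difference between groups against a spread estimated over all 4 groups and moderated across genes. That spread is one between these cultures only. Alternatives were DESeq2 1.42.0, limma 3.58.1 on log2(FPKM + 1) or log2(FPKM + 0.1), other scalings and filters, the compared groups alone, summed rows, a replicate block and leaving out each library. Values in every library are given for the 3 largest subunits, POLR3G, POLR3GL and the at most 5 members per direction and comparison with the smallest adjusted p among those called. Partner factors are named up to 4 per comparison, and 5 genes are named for likeness to POLR2A. POLR2B, its partner, and other values were added to these. The members, lists, rules and tests were chosen with earlier results of these data known.

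Peaks were assigned to GENCODE 44 TSSs on build 37. Promoter windows are RefSeq sequences of build 38, searched in GRCh37. Protein sequences were not used here.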

Additional observations from a re-analysis of the deposited data

How the results depend on the processing

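With 2 replicates per group, a fit without 1 library assumes that the lone library varies like the others. POLR3K had under 10 counts in a library and could not be fitted with at least 10 counts in every library. Over the single-gene values, none of 488 without a library and none of 760 under the other alternatives reversed a call, while 62 and 27 lost theirs and 7 and 16 gained one. The depth of the peak lists is unknown.

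Without any 1 library, subunits that rose with TPL in NT cells numbered 1 to 4 and those that fell 7 to 12, against 3 and 13 with all. In TAM cells they numbered 1 to 2 and 4 to 12, against 2 and 10. Between TAM and NT with TPL the count was 0 to 2, against 1, and with DMSO and in the interaction it stayed at 0.

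In the fit of the compared groups alone, 7 fell in NT cells, beside 4079 calls over 15735 genes, 56.7% of them lower. With TPL, 0 passed between states in such a fit, beside 529 calls over 16010 genes. With the thresholds of the study, 0 rose and 3 fell in NT cells, 0 rose and 1 fell in TAM cells, and 0 passed between states with TPL. In TAM cells 4 rose and 6 fell with upper quartile normalization, beside 5911 calls over 16948 genes, 38.9% of them lower. In the same comparison 1 rose with equal GAPDH, without a filter and with the replicate block. All calls there numbered 4682 of 16948 (65.3% lower), 5071 of 23529 (59.1% lower) and 4675 of 16948 (59.5% lower) in that order. Between states with DMSO, DESeq2 gave 2 and equal GAPDH 5, beside 2066 and 2008 of 16948 genes. With TPL, DESeq2, DESeq2 size factors, library size only, at least 10 counts, both limma fits and summed rows gave 2. Calls over all genes in these fits numbered from 1117 (library size only) to 2289 (DESeq2).

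The RNAPI medians became −0.71 (upper quartile) and −1.28 (GAPDH) in NT and −0.55 (upper quartile) in TAM cells. The RNAPIII medians became −0.92, −1.52 and −0.81 (at least 10 counts) in NT and −0.51 (upper quartile) in TAM cells. The RNAPII medians became 0.41 (upper quartile) and −0.13 (GAPDH) in NT and 0.12 (upper quartile) in TAM cells. The shared medians became 0.20 (upper quartile), −0.38 (GAPDH), 0.05 (at least 10 counts), 0.01 (summed rows) and 0.13 (without NT + TPL replicate 1) in NT, and 0.08 (upper quartile) and 0.05 (summed rows) in TAM cells. The cause was not tested.

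Without any 1 library, the medians lay between −1.07 and −0.87 (RNAPI), 0.12 and 0.36 (RNAPII), −1.32 and −1.01 (RNAPIII) and −0.13 and 0.13 (shared) in NT cells. In TAM cells they lay between −0.89 and −0.69, −0.14 and −0.01, −0.81 and −0.70, and −0.26 and −0.04. Peaks of at least 1 kb covered 13 and 4 subunit TSSs in NT cells without and with TPL, and 1 and 2 in TAM cells, beside 20.2, 11.4, 8.1 and 7.2% of genes.

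The replicate numbers are not stated to pair the cultures, and deviations of same-numbered libraries correlated between −0.135 and 0.05. With the replicate block, 3 rose and 12 fell in NT cells, 1 rose and 9 fell in TAM cells, and 0 passed between states with DMSO and in the interaction. Over all 16948 genes the block gave 5397 calls with TPL in NT cells (56.0% lower) and 4675 in TAM cells (59.5% lower). Between states with DMSO it gave 826, and in the interaction 1. The block ended the calls of POLR2H in NT cells (adjusted p = 0.06 by edgeR), of POLR1D (0.0504) and POLR3GL (0.0762) with TPL in TAM cells, and of POLR2L between states with TPL (0.0727), where POLR3G was called instead, higher in TAM cells by 0.78 on the log2 scale (adjusted p = 0.0361), so that the count there stayed at 1. Crossing the numbers, a choice made after seeing the data, gave 3 and 12 in NT cells.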

Other observations

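Counting a peak within 1 kb of the TSS gave 29 of 30 subunits in NT cells both without and with TPL, and 28 in TAM cells in both lists, beside 69.3, 56.2, 66.1 and 55.7% of all genes. Counting any annotated TSS gave 29 and 29 in NT cells and 26 and 28 in TAM cells, beside 68.0, 54.7, 62.0 and 53.8% of all genes. These counts carry no replicate error.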
